A study of Homo sapiens with 8 samples.

Results

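MIR21, MIR221 and MIR222 are microRNA genes, and UCA1 (urothelial cancer associated 1) is a gene for a long non-coding RNA. These 4 genes were chosen from earlier results of the same arrays because some of them moved in opposite directions with Pao extract in the 2 prostate cell lines. The differences between Pao extract and vehicle are therefore given as a description, with no test. Each gene was read by the 1 probe set listed with its symbol alone, so the members are 4 of 67528 probe sets, or 4 of the 22465 genes that could be named.

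Expression was read from 8 Affymetrix chips of the Human Transcriptome Array 2.0, with 2 arrays in each of 4 groups. BPH-1 cells, a prostate epithelial line derived from benign prostatic hyperplasia, and WPMY-1 cells, a prostate myofibroblast line, received vehicle or 250 μg/ml Pao extract, an extract from the bark of the tree Geissospermum vellosii. Treatment lasted 48 h by the labels, while the methods give a shorter time for the same experiment. Both lines were immortalised with the SV40 large T antigen, each stands for 1 donor, and the BPH-1 cells grew in RPMI medium while the WPMY-1 cells grew in DMEM, both with fetal bovine serum. Line and medium therefore cannot be told apart in any comparison between the lines. Whether the replicate arrays of a group stand for independent cultures is not stated, so the SDs and p-values below cover array-to-array spread that could be technical alone.

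A microRNA is cut from a hairpin in a longer primary transcript, first by DROSHA in the nucleus and then by DICER1 in the cytoplasm. The mature strand is loaded into an argonaute protein and pairs through its seed, bases 2 to 8, with messenger RNAs whose translation and stability it lowers. miR-21 is abundant in many epithelial and mesenchymal cells and in tumours, where it represses inhibitors of growth signalling. miR-221 and miR-222 repress the cell cycle inhibitor CDKN1B, and UCA1 is known from bladder carcinoma as an RNA of epithelial cells. The labels name no size selection of the total RNA, and it is not stated whether a probe set reads the hairpin, the primary transcript or the mature strand. The values below are accordingly called levels of the probe sets and not of mature microRNAs.

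The mature sequences are shown because they set out which members belong together. They were taken from RefSeq on GRCh38.p14, run 5′ to 3′, and carry the seed in capitals.
hsa-miR-21-5p: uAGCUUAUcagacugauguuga
hsa-miR-221-3p: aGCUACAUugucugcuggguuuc
hsa-miR-222-3p: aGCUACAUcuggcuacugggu
hsa-miR-222-5p: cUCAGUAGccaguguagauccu
miR-221-3p and miR-222-3p shared the seed GCUACAU and the first 8 bases, and 11 of 21 compared positions were identical. Of 2370 mature microRNA names in the table, 2 carried this seed. The seed of miR-21-5p was carried by 2 names, itself and miR-590-5p, and that of miR-222-5p by 1.

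The hairpins are shown because they are the units for which the array names its probe sets, with the mature strands above in capitals.
MIR21: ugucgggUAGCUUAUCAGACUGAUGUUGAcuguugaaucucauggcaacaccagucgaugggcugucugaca
MIR221: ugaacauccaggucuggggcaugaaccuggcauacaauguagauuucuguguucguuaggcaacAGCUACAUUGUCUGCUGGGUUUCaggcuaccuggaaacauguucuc
MIR222: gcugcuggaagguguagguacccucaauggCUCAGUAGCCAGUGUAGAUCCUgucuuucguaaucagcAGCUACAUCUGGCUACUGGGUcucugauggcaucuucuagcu
On GRCh38.p14 the MIR21 hairpin of 72 bases lies at chr17:59841266-59841337 on the plus strand, inside the span of VMP1, a gene for a membrane protein of autophagy. The MIR221 hairpin lies at chrX:45746157-45746266 and the MIR222 hairpin at chrX:45747015-45747124, each of 110 bases on the minus strand and inside the span of the non-coding host gene MIR222HG. Only 748 bases separate the MIR221 and MIR222 hairpins, which are known to be made from a common primary transcript. UCA1 lies on chromosome 19. VMP1 and MIR222HG were not analysed here as genes of their own.

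The deposited values are log2 values after robust multi-array averaging (RMA), and they hold no detection calls. The distance to background was therefore read from genes that these lines are not known to use. The median of 11 leukocyte markers was 3.96 to 4.08 on the 8 arrays, although CD68, which is not restricted to leukocytes, reached 8.13. The median of 14 microRNA genes known from muscle, neurons, pancreas, germ line or blood was 2.27 to 2.53, and the brightest of them, MIR150, lay between 5.12 and 5.89. Epithelial markers had medians of 9.29 to 9.47 in BPH-1 cells, against 5.56 to 5.82 in WPMY-1 cells. Stromal markers had medians of 5.53 to 5.77 in BPH-1 cells, against 8.57 to 8.94 in WPMY-1 cells. ACTA2, the smooth muscle actin of myofibroblasts, did not follow this pattern, with 6.20 in WPMY-1 and 6.01 in BPH-1 cells with vehicle (log2 difference 0.18, limma adjusted p = 0.257). A lower level in these bulk RNAs cannot tell fewer cells from less RNA per cell.

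With Pao extract MIR21 was higher in BPH-1 cells but lower in WPMY-1 cells. The BPH-1 arrays gave log2 values of 6.75 and 7.28 with vehicle and 7.36 and 8.15 with Pao extract. The WPMY-1 arrays gave 6.65 and 6.15 with vehicle and 5.96 and 5.57 with Pao extract. In neither line did the treated arrays overlap the vehicle arrays, but the nearest arrays were only 0.08 apart in BPH-1 cells and 0.19 apart in WPMY-1 cells. The group means were 7.01 ± 0.37 (SD, n = 2) and 7.75 ± 0.56 (SD, n = 2) in BPH-1 cells, a log2 fold change of 0.74 or 1.67-fold. In WPMY-1 cells they were 6.40 ± 0.35 (SD, n = 2) and 5.77 ± 0.27 (SD, n = 2), a log2 fold change of -0.63 or 1.55-fold lower. Differences between single arrays ran from 0.08 to 1.4 in BPH-1 cells, against from -1.07 to -0.19 in WPMY-1 cells, so the sign was shared by all array pairs while the size was not settled.

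MIR222 had the same pair of directions as MIR21 and, in WPMY-1 cells, the largest difference of the 4 genes. The BPH-1 arrays gave 5.37 and 4.96 with vehicle and 5.86 and 5.52 with Pao extract. The WPMY-1 arrays gave 6.58 and 5.96 with vehicle and 4.96 and 5.68 with Pao extract. The groups did not overlap in either line, with nearest arrays 0.15 and 0.28 apart. In BPH-1 cells the mean went from 5.17 ± 0.29 (SD, n = 2) to 5.69 ± 0.25 (SD, n = 2), which is a log2 difference of 0.52 or 1.44-fold. In WPMY-1 cells it went from 6.27 ± 0.44 (SD, n = 2) to 5.32 ± 0.51 (SD, n = 2), which is a log2 difference of -0.95 or 1.93-fold lower. The single-array differences of MIR222 in WPMY-1 cells ran from -1.62 to -0.28, the widest range among the members.

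MIR221, the near neighbour of MIR222 with the same seed, overlapped between treatment and vehicle in both lines. Its BPH-1 arrays gave 6.46 and 5.87 with vehicle and 6.31 and 6.26 with Pao extract, and the treated arrays lay between the vehicle arrays. Its WPMY-1 arrays gave 7.25 and 6.71 with vehicle and 6.80 and 6.32 with Pao extract. One treated WPMY-1 array thus lay above one vehicle array. The log2 fold change was 0.12 or 1.09-fold in BPH-1 cells, from 6.16 ± 0.41 (SD, n = 2) to 6.28 ± 0.03 (SD, n = 2). It was -0.42 or 1.34-fold lower in WPMY-1 cells, from 6.98 ± 0.38 (SD, n = 2) to 6.56 ± 0.34 (SD, n = 2). Single-array differences crossed 0 in both lines, from -0.19 to 0.43 in BPH-1 cells, against from -0.93 to 0.09 in WPMY-1 cells. Whether MIR221 and MIR222 differ from each other in their response was not tested.

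UCA1 was the member with the closest arrays. The BPH-1 arrays gave 9.38 and 9.26 with vehicle and 9.93 and 9.84 with Pao extract. The WPMY-1 arrays gave 4.72 and 4.69 with vehicle and 4.26 and 3.92 with Pao extract. In BPH-1 cells the nearest arrays of the 2 groups were 0.45 apart, and the mean went from 9.32 ± 0.09 (SD, n = 2) to 9.88 ± 0.07 (SD, n = 2), which is a log2 difference of 0.56 or 1.48-fold. In WPMY-1 cells the mean went from 4.71 ± 0.02 (SD, n = 2) to 4.09 ± 0.24 (SD, n = 2), which is a log2 difference of -0.62. All WPMY-1 values were near the leukocyte marker median, and the 2 treated arrays lay on either side of it, so the WPMY-1 difference is no measure of UCA1 expression or of its size. Only the BPH-1 difference of UCA1 was therefore measured clear of background.

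**Figure D1:**
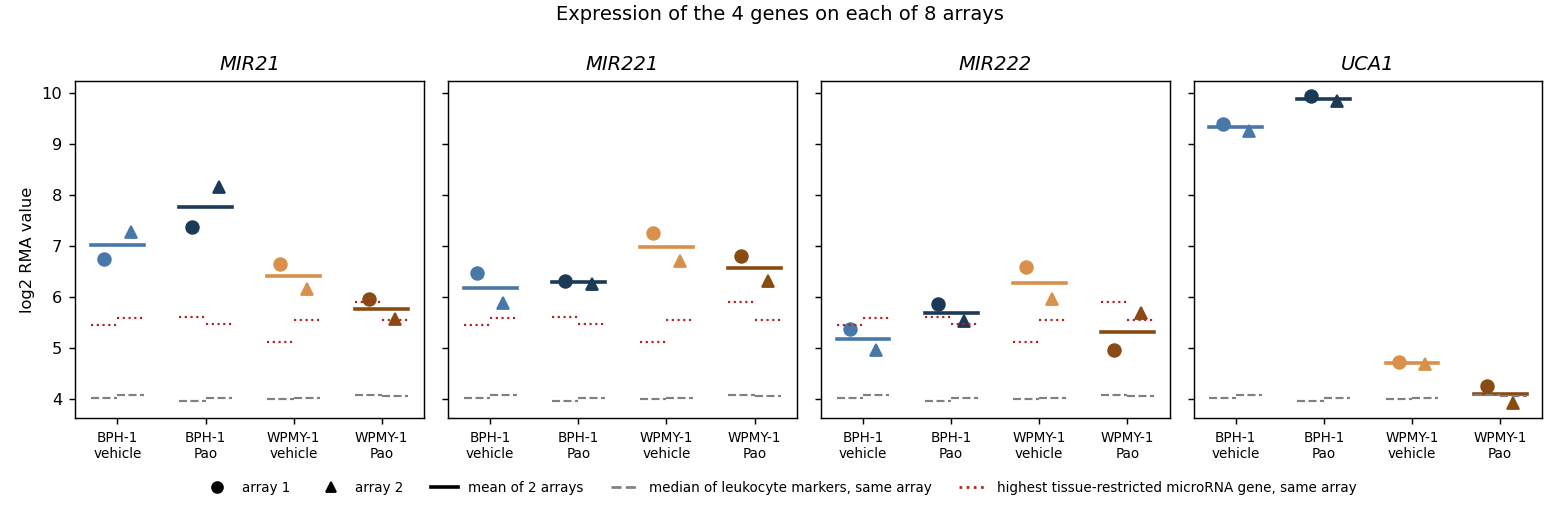
Log2 RMA value (vertical axis) of each gene on the 8 arrays in 4 groups, with circles and triangles for arrays 1 and 2 and a bar for their mean. Dashed lines give the leukocyte marker median of each array (3.96 to 4.08) and dotted lines, in the microRNA panels, the brightest tissue-restricted microRNA gene (5.12 to 5.89). UCA1 in WPMY-1 cells lies near the dashed lines, and MIR222 falls below the dotted line on 3 arrays.

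Against the tissue-restricted microRNA genes, MIR21 and MIR221 lay above 14 of 14 on all 8 arrays. Both treated WPMY-1 arrays of MIR21, at 5.96 and 5.57, were nevertheless close to the brightest of them, MIR150, at 5.89 and 5.55. MIR150 had 5.12 and 5.55 on the WPMY-1 vehicle arrays, a log2 fold change of 0.39 with Pao extract (limma adjusted p = 0.438). It is therefore not a fixed floor. MIR222 lay above 14 of 14 on 5 arrays and above 13 of 14 on both BPH-1 vehicle arrays and on WPMY-1 Pao array 1. The low end of the MIR21 comparison in WPMY-1 cells and of both MIR222 comparisons thus sat at the level that MIR150, a microRNA gene of lymphocytes, reached in the same cells, and a fold change taken against that level is no firm measure of size.

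The 4 genes were measured less evenly than most. The SD between arrays of a group, pooled over the 4 groups, was 0.40 for MIR21, 0.33 for MIR221, 0.39 for MIR222 and 0.13 for UCA1. The median of this SD over all genes was 0.085, and over microRNA genes it was 0.125. Of all genes, 99.8% had a lower SD than MIR21, 99.4% a lower one than MIR221, 99.7% a lower one than MIR222 and 80.9% a lower one than UCA1. Replicate error therefore weighs more on the 3 microRNA genes than on a typical gene of these arrays.

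At the study's 1.4-fold cutoff, 0.236% of the 22465 genes were higher and 0.0623% lower in treated BPH-1 cells. In WPMY-1 cells 0.392% were higher and 0.632% lower. Of the members, MIR21, MIR222 and UCA1 passed the cutoff as higher in BPH-1 cells and as lower in WPMY-1 cells, and these were the only 3 of all genes to do both. Single arrays decided this for each of them. MIR21 in BPH-1 cells was at 0.47 without vehicle array 1 and at 0.34 without Pao array 2, below the cutoff of 0.485 on the log2 scale, and in WPMY-1 cells at -0.39 without vehicle array 1 and at -0.44 without Pao array 2. MIR222 in BPH-1 cells was at 0.32 without vehicle array 2 and at 0.35 without Pao array 1. UCA1 in WPMY-1 cells was at -0.45 without Pao array 2. MIR222 in WPMY-1 cells and UCA1 in BPH-1 cells stayed past the cutoff without any 1 array. This is what the choice of members rests on and is given as a description. The genes just outside were RUNX1-IT1, with a log2 fold change of 0.48 in the epithelial and -0.54 in the myofibroblast line, and RNA5SP153, with 0.52 and -0.46. HYMAI followed with 0.42 and -0.80, and MIR221 with 0.12 and -0.42 stood further out.

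Groups without overlap were common at 2 arrays each. In BPH-1 cells 14.4% of genes had both treated arrays above both vehicle arrays and 18.8% had both below. In WPMY-1 cells the shares were 27% above and 16.6% below. For 2.09% of genes, 470 in number, the treated arrays lay above in BPH-1 cells, against below in WPMY-1 cells, as they did for MIR21, MIR222 and UCA1. With 2 arrays against 2, an exact two-sided permutation test cannot go below a p of 0.333.

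By size, MIR21 had the largest log2 fold change upward in BPH-1 cells of 1040 microRNA genes and the 13th largest of all genes. MIR222 was 3rd among microRNA genes and 43rd of all, and MIR221 was 165th and 2025th. UCA1 was 2nd among 1334 long non-coding RNA genes and 30th of all. Downward in WPMY-1 cells, MIR222 was 2nd among microRNA genes and 11th of all genes, MIR21 14th and 61st, MIR221 52nd and 221st, and UCA1 10th among long non-coding RNA genes and 66th of all. These ranks describe the selected genes and say nothing of their error.

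**Figure D2:**
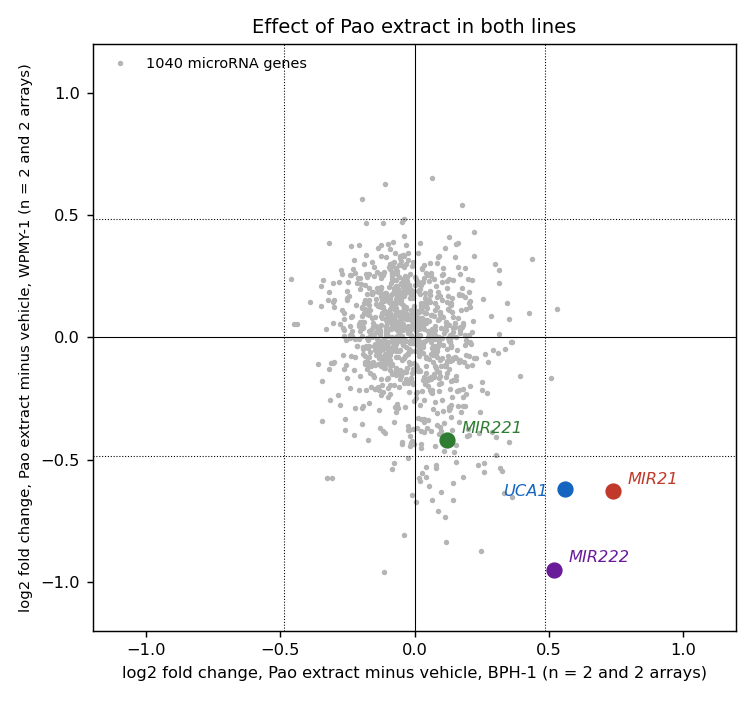
Log2 fold change of Pao extract against vehicle in BPH-1 cells (horizontal axis) and in WPMY-1 cells (vertical axis), each from 2 arrays against 2. Grey points are 1040 microRNA genes, coloured points the 4 members, and dotted lines mark 1.4-fold. MIR21, MIR222 and UCA1 lie past both lines at the lower right, and MIR221 at 0.12 and -0.42 lies among the other microRNA genes.

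The other microRNA genes were mostly near 0. Their median log2 fold change was -0.032 in BPH-1 cells, against 0.027 in WPMY-1 cells, beside -0.015 and 0.031 over all genes. In BPH-1 cells 4 of 1040, or 0.385%, were at least 1.4-fold higher and 0 were lower. These 4 were MIR21, MIR222, MIR548I3 and MIR581, and the latter pair lay near background. In WPMY-1 cells 5 were higher and 36, or 3.46%, were lower, and MIR21 and MIR222 were 2 of these 36. The brightest microRNA probe sets with vehicle, MIR4466, MIR548AD and MIR548D1, had log2 fold changes between -0.34 and 0.10 over both lines.

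The baseline of the lines was a comparison that did not choose the members and was tested with limma over all genes. It shares its vehicle arrays with both Pao comparisons. Of all genes, 15.6% were lower and 15.3% higher in WPMY-1 than in BPH-1 cells at an adjusted p under 0.05, so a call here is common. UCA1 was lower in WPMY-1 cells, with a log2 difference of -4.61 (SE 0.11, limma adjusted p = 4.41e-08). The ratio of 24.5-fold is a lower bound, because UCA1 in WPMY-1 cells was near background.

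MIR221 and MIR222 were higher in WPMY-1 than in BPH-1 cells with vehicle, which is the direction that the choice of members favours. The log2 difference was 0.81 for MIR221 (SE 0.24, limma adjusted p = 0.0313), or 1.76-fold. It was 1.10 for MIR222 (SE 0.28, limma adjusted p = 0.0162), or 2.15-fold, and since both BPH-1 vehicle arrays of MIR222 lay below MIR150, the size of this difference is not firmly measured. Both calls were lost without BPH-1 vehicle array 2, with 0.52 (limma adjusted p = 0.196) for MIR221 and 0.90 (limma adjusted p = 0.103) for MIR222. They were also lost without WPMY-1 vehicle array 1, with 0.54 (limma adjusted p = 0.186) and 0.79 (limma adjusted p = 0.105). MIR21 was lower in WPMY-1 cells by the means, with a log2 difference of -0.62 (SE 0.29, limma adjusted p = 0.151), and did not pass the test.

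The order of the levels follows from these values and is a description where it involves Pao extract. For MIR21 it ran from BPH-1 with Pao extract over BPH-1 and WPMY-1 with vehicle to WPMY-1 with Pao extract, and no neighbouring groups overlapped although their gaps were smaller than their SDs. For MIR222 it ran from WPMY-1 with vehicle over BPH-1 with Pao extract and WPMY-1 with Pao extract to BPH-1 with vehicle, and neighbouring groups in this order were not separated beyond their spread. For MIR221 both WPMY-1 groups stood above both BPH-1 groups by the means, and neighbouring groups were not separated beyond their spread. For UCA1 it was the same as for MIR21, with all gaps larger than the SDs. With Pao extract the log2 difference of WPMY-1 from BPH-1 cells was -1.98 for MIR21, 0.28 for MIR221 and -0.37 for MIR222, so MIR222 was no longer higher in WPMY-1 cells by the means. For UCA1 it was -5.79, which is a bound only, since the treated WPMY-1 arrays lay at background.

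No gene passed an adjusted p under 0.05 for the Pao effect in BPH-1 cells with limma, 0% of those tested, while an unadjusted p under 0.05 was reached by 510 genes that were higher and 417 that were lower. The methods' t-test after Benjamini-Hochberg adjustment also called 0. In WPMY-1 cells 15 genes, or 0.0668%, passed limma. At an unadjusted p under 0.05 the shares of all genes were 4.13% in BPH-1 cells but 11.2% in WPMY-1 cells, which are the background for the unadjusted counts below. Of all 22465 genes, 9654 had a log2 fold change above 0 and 12799 below 0 in BPH-1 cells. In WPMY-1 cells 13436 lay above 0 and 9024 below, the background for such counts in the lists. None of the lists below had a member past limma in either line.

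Known targets of miR-21 had no member past the adjusted test. Of 27 listed genes 23 were measured, and 15 lay above 0 in BPH-1 cells, against 10 in WPMY-1 cells, with medians of 0.07 and -0.02. At an unadjusted p, 4 passed limma in BPH-1 cells, against 8 in WPMY-1 cells. TPM1, an actin-binding tropomyosin, had 0.36 in BPH-1 cells, against -0.47 in WPMY-1 cells, the same directions as MIR21, with limma adjusted p = 1.0 and 0.39. SPRY2, an inhibitor of receptor tyrosine kinase signalling, had 0.36 and 0.11, PELI1, a ubiquitin ligase of Toll-like receptor signalling, had 0.40 and 0.03, and MARCKS, an actin-binding substrate of protein kinase C, had 0.15 and -0.32.

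Of 28 listed targets of miR-221 and miR-222, 25 were measured, and 11 lay above 0 in BPH-1 cells, against 13 in WPMY-1 cells, with medians of -0.03 and 0.03. At an unadjusted p, 2 passed limma in BPH-1 cells, against 4 in WPMY-1 cells. ICAM1, an adhesion molecule for leukocytes, stood at -0.03 on the log2 scale in BPH-1 cells and at 0.57 in WPMY-1 cells (limma adjusted p = 0.152), the single member of the list past 1.4-fold. MMP1, a collagenase, had -0.44 in BPH-1 cells, where its mean went from 10.33 to 9.88, and 0.10 in WPMY-1 cells at a low level.

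The measured part of the machinery that makes microRNAs differed little with Pao extract. Of 22 listed genes 14 were measured, 8 above 0 in BPH-1 cells, against 6 in WPMY-1 cells, with medians of 0.00 and -0.07. The 8 not measured were DGCR8, DDX5, KHSRP, HNRNPA1 and the argonaute genes AGO1, AGO2, AGO3 and AGO4, so nothing is said of these. TUT4, which adds uridines to let-7 precursors, had 0.22 in BPH-1 cells, against -0.20 in WPMY-1 cells. DICER1 had -0.10 and -0.21, XPO5, which exports precursors from the nucleus, -0.10 and -0.24, and TNRC6A, a partner of the argonautes, -0.02 and -0.18. DICER1 was lower in WPMY-1 than in BPH-1 cells with vehicle, by a log2 difference of -1.35 (limma adjusted p = 0.000131). TUT4 at -0.63 and DIS3L2 at -0.31 were also lower at a limma adjusted p under 0.05. Higher in WPMY-1 cells by the same test were TNRC6A, TNRC6B, TNRC6C, DDX17, TUT7 and LIN28B, with log2 differences from 0.28 to 0.61. Over all genes such calls were common, with 15.6% lower and 15.3% higher.

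Among transcription factors tied to MIR21 or to MIR221 and MIR222, 17 of 18 were measured, with medians of -0.01 in BPH-1 cells, against 0.01 in WPMY-1 cells. EGR1, an immediate early factor, had 0.77 in BPH-1 cells (limma adjusted p = 1.0), where its arrays gave 6.33 and 7.38 with vehicle and 7.59 and 7.66 with Pao extract, and -0.10 in WPMY-1 cells. One BPH-1 vehicle array of EGR1 stood well below the other 3. SNAI2, a repressor of epithelial genes, had -0.01 and -0.43, and it alone of this list passed the fit with the replicate block in WPMY-1 cells. With this block 223 of all genes passed in that line, against 15 in the main fit. JUND, a subunit of AP-1, had 0.04 and 0.32, and ZBTB16, a repressor of MIR221 and MIR222, had -0.12 and 0.18.

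Of 18 listed regulators and partners of UCA1, 17 were measured, with medians of 0.05 in BPH-1 cells, against -0.04 in WPMY-1 cells. TEAD1, a partner of YAP, had 0.19 and -0.17, and ETS1, an ETS family factor, had -0.19 and -0.09. HIF1A, the oxygen-regulated subunit of HIF-1, had 0.07 and -0.25, and SMAD3, a mediator of TGF-β signalling, had -0.05 and -0.23. Of 26 listed long non-coding RNA genes 13 were measured besides UCA1, and 12 lay above 0 in BPH-1 cells, against 4 in WPMY-1 cells, with medians of 0.11 and -0.02. MALAT1, a nuclear RNA of speckles, had 0.41 and -0.02 and CDKN2B-AS1 0.26 and -0.01, while CCAT1 had 0.04 and 0.46 and EPB41L4A-AS1 0.18 and -0.30.

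Of 36 listed microRNA genes of epithelium, stroma or tumours 18 were measured, and those not measured included MIR17, MIR155, MIR205, MIR143, MIR145 and MIR424. The measured genes had a median of -0.05 in each line. At least 1.4-fold lower in WPMY-1 cells were 5 of the 18, against 3.46% of all 1040 microRNA genes. MIR100 had -0.74, MIR29A, which represses collagen genes, -0.63, MIR31 -0.58, MIR125B1 -0.57 and MIRLET7I, a let-7 gene, -0.55, and with the replicate block MIR100 and MIR125B1 passed. Their log2 fold changes in BPH-1 cells were 0.11, 0.10, -0.31, -0.33 and 0.03. MIR100, MIR31 and MIR125B1 had means of 4.24, 4.05 and 4.28 in WPMY-1 cells with vehicle, near the leukocyte median. The median of the tissue-restricted microRNA genes was lower, at 2.43 on both of these vehicle arrays. How near background MIR100, MIR31 and MIR125B1 lay is therefore not settled. Of 14 listed host transcripts 5 were measured, and MIR99AHG had -0.64, MIR100HG -0.36 and MIR31HG -0.26 in WPMY-1 cells, while MIR210HG had 0.26. In BPH-1 cells the same transcripts had -0.02, -0.20, -0.26 and -0.05. Stromal markers also lay lower with Pao extract in WPMY-1 cells, 10 of 11 below 0 with a median of -0.34 and 0 past limma. COL1A1, COL1A2 and FN1, genes of the extracellular matrix, passed with the replicate block. That block, which also passed MIR100 and MIR125B1, called 223 of all genes in this line, against 15 in the main fit. The array numbers do not establish the pairing that it assumes. The part of the stromal markers in the lower values of the members was not tested.

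**Figure D3:**
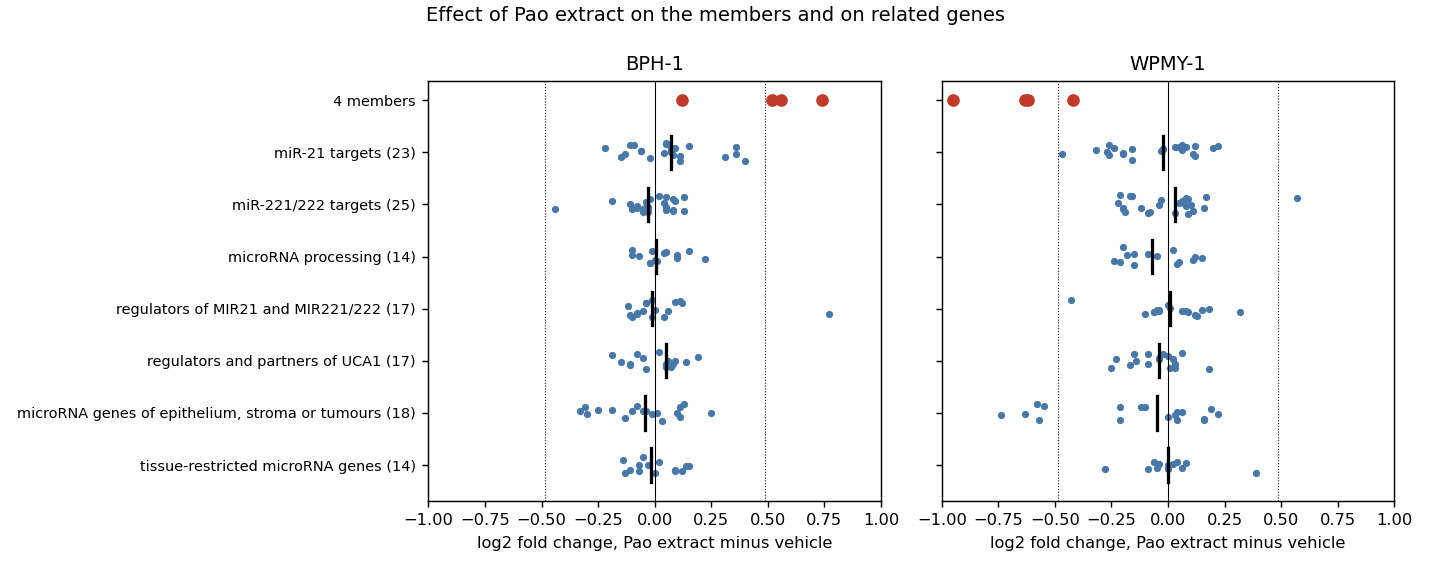
Log2 fold change of Pao extract against vehicle (horizontal axis) in BPH-1 cells on the left and WPMY-1 cells on the right, with 1 point per gene, a vertical bar for each list's median and dotted lines at 1.4-fold. The 4 members (red) lie between 0.12 and 0.74 on the left and between -0.95 and -0.42 on the right, while the medians of the 7 lists shown lie between -0.07 and 0.07. Some lists not shown had larger medians. In WPMY-1 cells these were -0.26 for host transcripts and -0.34 for stromal markers, and in BPH-1 cells 0.11 for long non-coding RNA genes.

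The genes next to the members on the chromosome stayed close to 0, and none passed limma in either line. Around MIR21, CLTC, the clathrin heavy chain, had -0.01 in BPH-1 cells, against -0.07 in WPMY-1 cells. DHX40 had 0.14 and -0.01, YPEL2 0.11 and 0.23, TUBD1 -0.00 and -0.19, RPS6KB1, the S6 kinase, 0.04 and -0.19, and RNFT1 0.19 and 0.02. Their log2 fold changes were all nearer to 0 than those of MIR21.

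Around MIR221 and MIR222, KDM6A, a histone demethylase, had 0.11 in BPH-1 cells, against -0.14 in WPMY-1 cells, and ZNF674-AS1 had 0.03 and -0.21. The other measured neighbours, DIPK2B, DUSP21, KRABD4 and ZNF674, lay between -0.15 and 0.08. With vehicle, ZNF674-AS1 was higher in WPMY-1 than in BPH-1 cells, as were MIR221 and MIR222, by a log2 difference of 0.61 (limma adjusted p = 0.000214).

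Around UCA1, the 6 measured neighbours were OR10H1, OR10H5, CYP4F24P, CYP4F2, CYP4F11 and OR10H4. Their log2 fold changes lay between -0.11 and 0.11 in BPH-1 cells, and between -0.09 and 0.23 in WPMY-1 cells. CYP4F11, a cytochrome P450 of fatty acids, and CYP4F2, which hydroxylates vitamin K and leukotriene B4, were lower in WPMY-1 than in BPH-1 cells with vehicle, as UCA1 was. The log2 differences were -2.10 (limma adjusted p = 8.32e-06) for CYP4F11 and -0.65 (limma adjusted p = 0.00151) for CYP4F2, and the WPMY-1 means of 4.12 and 4.57 were near background.

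Genes with the most similar pattern were found by the mean absolute difference of log2 values over the 8 arrays, after the mean of each line was subtracted, among 9983 genes with a mean above 6. This is a description over 8 arrays and follows the same values that chose the members. For MIR21 the nearest were TPM1 at 0.149, CCN2, a matricellular growth factor, at 0.152 and EDIL3, an integrin ligand, at 0.187, where a flat profile would be 0.349 away. The log2 fold change of CCN2 was 0.54 in BPH-1 cells, against -0.27 in WPMY-1 cells, and EDIL3 had 0.60 and -0.36. The Pao array 2 of BPH-1 cells was the highest of the line for all of them.

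For MIR221 the nearest genes were MIR548A2 at 0.057, CEP290, a protein of the ciliary transition zone, at 0.067 and KIF18A, a mitotic kinesin, at 0.071, with a flat profile at 0.216. They were closer to MIR221 than MIR222 was, at 0.317, although MIR221 and MIR222 come from neighbouring hairpins. The log2 fold changes of MIR548A2, CEP290 and KIF18A were 0.04, 0.13 and 0.15 in the BPH-1 line, against -0.57, -0.41 and -0.42 in the WPMY-1 line. In all 3 and in MIR221, array 1 of each group was brighter than array 2.

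For MIR222 the nearest genes were HNRNPU-AS1 at 0.200, MIR1206 at 0.201 and MIR29A at 0.206, with a flat profile at 0.368. All 3 were lower with Pao extract in WPMY-1 cells, with log2 fold changes of -0.69, -0.71 and -0.63, and had 0.13, 0.09 and 0.10 in BPH-1 cells. For UCA1 the nearest were SAMD9, an interferon-induced antiviral factor, at 0.101, ATXN1, a transcriptional corepressor, at 0.117 and HERC4, a ubiquitin ligase, at 0.130, with a flat profile at 0.296. Their log2 fold changes were 0.27, 0.29 and 0.26 in BPH-1 cells and -0.52, -0.47 and -0.51 in WPMY-1 cells. Among the members the nearest pair was MIR221 and UCA1 at 0.201, little nearer than MIR221 was to a flat profile, at 0.216. The farthest pair was MIR21 and MIR222 at 0.437, farther than either was from a flat profile, at 0.349 and 0.368.

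**Figure D4:**
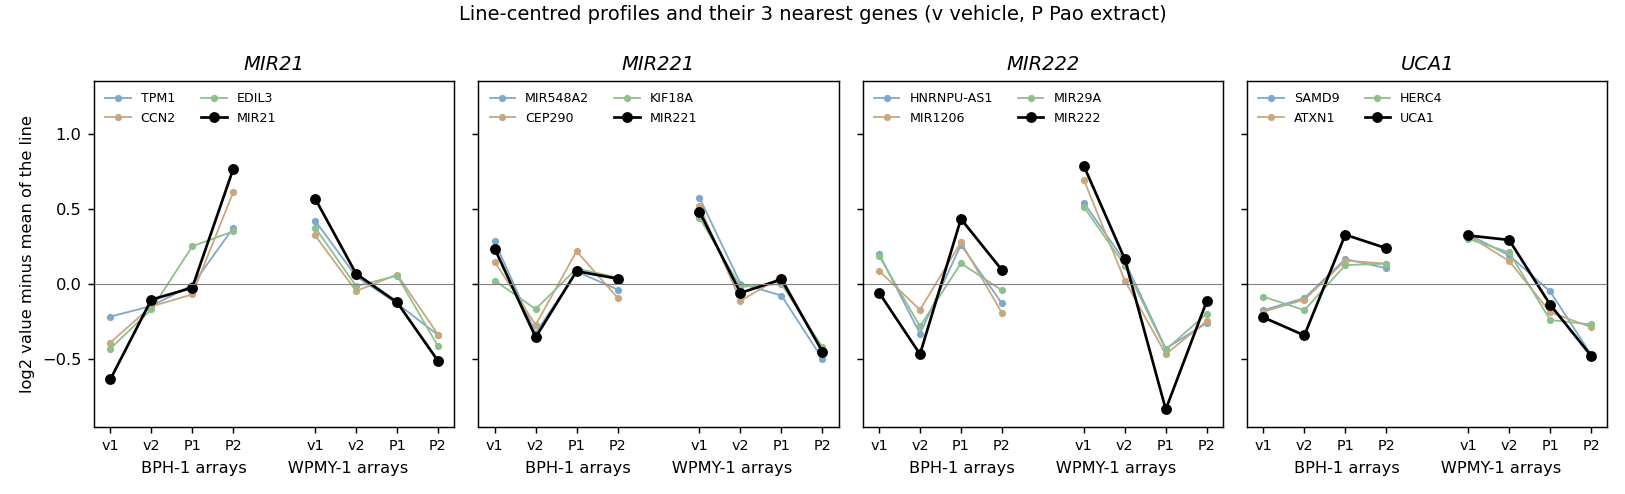
Log2 value minus the mean of the line (vertical axis) on the 4 arrays of BPH-1 cells and the 4 of WPMY-1 cells (v1 and v2 vehicle, P1 and P2 Pao extract), with each member in black and its 3 nearest genes in colour. The nearest genes follow MIR221 within 0.071 on average and MIR222 only within 0.206.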

How the data were processed

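The deposited table holds log2 values that the authors obtained with RMA for 67528 probe sets on each of 8 arrays. RMA, which the submitters' processing notes name without a version, corrects background and brings arrays to a common distribution, so differences shared by a whole array are lost. The build behind the array's annotation was not given in the sources used here. Names came from the annotation of the platform (23781 probe sets with 1 symbol, 1543 with several, 42204 not listed), and gene IDs tied 21497 of them to RefSeq. Where a gene had more than 1 probe set (479 genes), the brightest on average was kept. limma 3.58.1 (R 4.3.3) fitted a mean for each of the 4 groups, with 4 residual degrees of freedom and Benjamini-Hochberg adjustment over 22465 genes. The code was checked on simulated data. With 2 arrays per group, their number limits the precision.

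The members and gene lists were chosen with earlier results of these data known. Named genes were the members, the 3 nearest measured genes on either side, the 3 nearest profiles, up to 4 genes per list with the largest change or past limma, and the 3 brightest microRNA genes of each line. Other normalizations, filters, variance models, fits within a line, the replicate block, the methods' t-test, other fold cutoffs and leaving out each array were tried.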

Additional observations from a re-analysis of the deposited data

Results flagged for a closer look

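The lists of markers and of tissue-restricted microRNA genes were left out of this count. Of 66 named genes, 11 had treated arrays on opposite sides of the vehicle arrays in the 2 lines with no overlap in either, as had 1707 of all genes, or 7.60%. For the difference of the Pao effects between the lines, 0 of all genes passed an adjusted p under 0.05 with limma (lowest limma adjusted p = 0.24). MIR21, MIR222 and UCA1 were chosen by this difference, so for them it is a description only. The WPMY-1 log2 fold change minus the BPH-1 log2 fold change was -1.37 for MIR21, -1.47 for MIR222 and -1.18 for UCA1. Among the genes with profiles nearest to a member it was -0.83 for TPM1, -0.78 for SAMD9, -0.76 for ATXN1 and -0.76 for HERC4, whose likeness rests on the same values. Among list genes and neighbours it was -0.48 for EPB41L4A-AS1, -0.41 for TUT4, -0.24 for ZNF674-AS1 and 0.31 for ZBTB16, the single one with the higher value in WPMY-1 cells.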

How the results depend on the processing

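Other normalizations, filters and variance models left the members' log2 fold changes with Pao extract at 0.74 to 0.76 and -0.66 to -0.63 for MIR21, 0.12 to 0.14 and -0.44 to -0.41 for MIR221, 0.52 to 0.54 and -0.97 to -0.95 for MIR222, and 0.56 to 0.59 and -0.65 to -0.62 for UCA1, in BPH-1 and then WPMY-1 cells. Leaving out 1 array moved them more and turned the sign of MIR221 in BPH-1 cells. It moved MIR21 between 0.34 and 1.13 in BPH-1 cells and between -0.88 and -0.39 in WPMY-1 cells, MIR222 between 0.32 and 0.73 and between -1.31 and -0.59, UCA1 between 0.50 and 0.63 and between -0.79 and -0.45, and MIR221 between -0.17 and 0.41 and between -0.69 and -0.15. The baseline difference ran from 0.52 to 1.11 for MIR221 (limma adjusted p from 0.0146 to 0.196) and from 0.79 to 1.41 for MIR222 (limma adjusted p from 0.00708 to 0.105) when 1 array was left out.

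Counts over all genes depended more on the settings. In WPMY-1 cells the 15 genes that passed limma became 4 with a further quantile normalization, 3 with arrays centred on their median, 0 with a fit within the line, 0 with the methods' t-test adjusted and 1627 with it unadjusted, and 0 to 9 without 1 array, with the lowest value without WPMY-1 Pao array 1 and fewer calls without any of the 8 arrays. The 0 genes in BPH-1 cells became 1 among genes with a mean above 5 and 1158 with the unadjusted t-test. The 67 genes past 1.4-fold in BPH-1 cells became 5 at 2-fold, 538 at 1.2-fold and 106 to 135 without any 1 of the BPH-1 arrays. The 230 in WPMY-1 cells became 153 among genes with a mean above 5, 15 at 2-fold, 1534 at 1.2-fold and 198 to 578 without 1 array, with 578 without WPMY-1 vehicle array 2 and 468 without WPMY-1 Pao array 1. The cause of these shifts was not tested.

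The labels number the 2 arrays of each group, but with 2 pairs a line the numbers do not establish a pairing. Deviations of arrays with the same number had a correlation over genes of 0.50 for BPH-1 and 0.43 for WPMY-1, and with the replicate block 3 genes passed for BPH-1 and 223 for WPMY-1. Same-numbered differences were 0.61 and 0.87 for MIR21, -0.15 and 0.39 for MIR221, 0.49 and 0.56 for MIR222 and 0.55 and 0.58 for UCA1 in BPH-1 cells. In WPMY-1 cells they were -0.69 and -0.58, -0.45 and -0.39, -1.62 and -0.28, and -0.46 and -0.78 in the same order of genes.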

Other observations

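Lower microRNA probe sets in WPMY-1 cells with Pao extract were more frequent than higher ones, 36 against 5 of 1040, while in BPH-1 cells 0 were at least 1.4-fold lower. Of the 36, 28 had a log2 fold change above 0 in BPH-1 cells. Only 12 of the 36 had a mean with vehicle in WPMY-1 cells above the brightest tissue-restricted microRNA gene on these arrays, MIR150, at 5.55. The median of the tissue-restricted genes was 2.43 on both of these arrays, so how near background the others lay is not settled. Among the brighter ones, MIR29A went from 6.60 to 5.96, MIRLET7I from 7.17 to 6.62 and MIR548W from 7.38 to 6.73. These were chosen after their values were seen, and 2 of the 1040 genes passed limma. MIR3136 was lower, from 4.18 to 3.37, and MIR3119-1 was higher, from 1.85 to 2.51. MIR3119-1 lay near the tissue-restricted median, while how near background MIR3136 lay is not settled.

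A further probe set is listed with both VMP1 and MIR21 and was left out by the rule of 1 symbol. Its log2 values were 10.28 to 10.70 on the 8 arrays, and they cannot be assigned to either gene.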
